A study of Mus musculus with 12 samples.

Results

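The comparison described here is that of Pbrm1-/- (labelled HOMO) with Pbrm1+/+ (labelled WT) cells of the population labelled CB, over every autosomal peak of 1 deposited table of raw ATAC-seq counts. It covers 67159 of the 68689 peaks, each 501 bp wide, and 6 of the 12 libraries, 3 WT CB and 3 HOMO CB. Cells came from the spleen of C57BL/6 mice aged 8 to 10 weeks, the design text names them germinal center B cells, and the libraries were made by the Omni-ATAC protocol, which reads open chromatin through the cuts that the Tn5 transposase makes in it. The other 6 libraries are WT and HOMO cells of the population labelled CC and entered the fit to estimate the spread per peak. The labels do not spell out CB or CC, do not describe the Pbrm1 allele (the column names begin with Pbrm1AID), give no sex and do not state that each library is a separate mouse, so the p-values measure the spread between these libraries.

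Pbrm1 encodes BAF180, the polybromo subunit that defines the PBAF form of the SWI/SNF remodelling complexes, which slide or evict nucleosomes with the energy of ATP. Its bromodomains bind acetylated histone tails, and PBAF is known mainly from promoters. In the germinal center, B cells mutate their antibody genes and divide in a dark zone and are selected with the help of T cells in a light zone, and Cxcr4, a chemokine receptor, and Cd83, an activation marker, are known for marking the respective zones.

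All 14 germinal center B cell marker genes had a peak, and the strongest peak per gene had a median of 48.0 CPM (read counts scaled to a common library total) in WT CB. The corresponding median was 1.5 CPM for 15 T cell markers, 5 of which had no peak, and 5.94 CPM for 16 myeloid markers, 4 of which had none. For 15 naive and follicular B cell markers, 1 of which had no peak, it was 41.2 CPM. These medians therefore did not separate germinal center from naive B cells. Of the 24 peaks nearest to Cxcr4, 4 were higher in WT CB than in WT CC and none lower, and of the 23 peaks of Cd83, 6 were higher in WT CC and none in WT CB. Total counts of the CB libraries ran from 7679509 (HOMO CB 1) and 8826472 (WT CB 2) to 45590454 (HOMO CB 3). The 2 peaks in Xist summed to 4.35 CPM in WT CB 2 and to 14.1 to 24.8 CPM in the other 5 CB libraries. Deletion of Pbrm1 could not be read from its peaks: the start peak of Pbrm1 had 29.0, 26.5 and 39.3 CPM in WT CB against 26.5, 29.6 and 36.0 CPM in HOMO CB. Those groups overlapped, and the adjusted p was 0.931 (log2 fold change -0.04 ± 0.18, SE).

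Loss of accessibility outnumbered gain. In HOMO CB, 2604 of 67159 autosomal peaks were lower than in WT CB (3.88%) and 527 were higher (0.785%), 4.66% in all, at an adjusted p under 0.05 in edgeR's quasi-likelihood test. The called peaks belonged to 2104 genes for losses and 424 for gains, and 54 genes had peaks called in both directions. Changes were moderate: the median log2 fold change was -0.77 among lower and 0.73 among higher peaks, and 24.1% and 25% of them, respectively, changed by at least 2-fold. Repeating the fit 6 times, each time with another CB library removed, called 246 of the lower and 22 of the higher peaks every time. The counts were 301 lower and 35 higher without HOMO CB 2, 598 and 87 without WT CB 1, 667 and 127 without HOMO CB 3, and 1712 and 400 without WT CB 3. Leaving out both WT libraries numbered 2, whose Xist signal was low, gave 1382 lower and 250 higher peaks, and thinning every library to the smallest total gave 799 and 138.

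Peaks near transcription starts carried most of the loss. A peak was placed at a start when its midpoint lay within 1 kb of a RefSeq start of a protein-coding gene. Such peaks were called lower in 1366 of 13190 cases (10.4%) and higher in 20. Peaks within genes were called lower in 490 of 27827 cases (1.76%) and peaks between genes in 374 of 19791 (1.89%). Gains had the other distribution, with 284 within genes and 189 between genes. Peaks at gene ends with no listed start were lower in 292 of 4351 cases (6.71%). Starts were available for 81.7% of the autosomal protein-coding genes outside chromosome 18 and for none on chromosome 18, so the last class also holds unlisted starts.

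The side of the start mattered. Percentages called lower were 5.38% for the 250 bp upstream of a start and 9.78% for the 250 bp downstream. They rose to 19.5% at 250 to 500 bp downstream, to 23.3% at 500 to 750 bp and to 16.4% at 750 to 1000 bp, and then dropped to 7.31% at 1000 to 1500 bp and 2.92% at 1500 to 2000 bp. Upstream, the same distances gave 3.30%, 5.47% and 4.84%. In all, 745 of 3651 peaks lying 250 to 1000 bp downstream were lower and 0 were higher, against 86 lower and 3 higher of 1900 peaks at the same distances upstream. The 0 is from edgeR's test, in which 35 of the downstream peaks were higher at an unadjusted p under 0.05, and DESeq2 called 4 and limma voom 6 of them higher. All 3 HOMO CB libraries were below all 3 WT CB libraries in 41.8% of the downstream and 18.9% of the upstream peaks, against 13.2% of all autosomal peaks. The reverse order held for 1.34% and 5.05%, against 10.2% of all autosomal peaks.

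**Figure D1:**
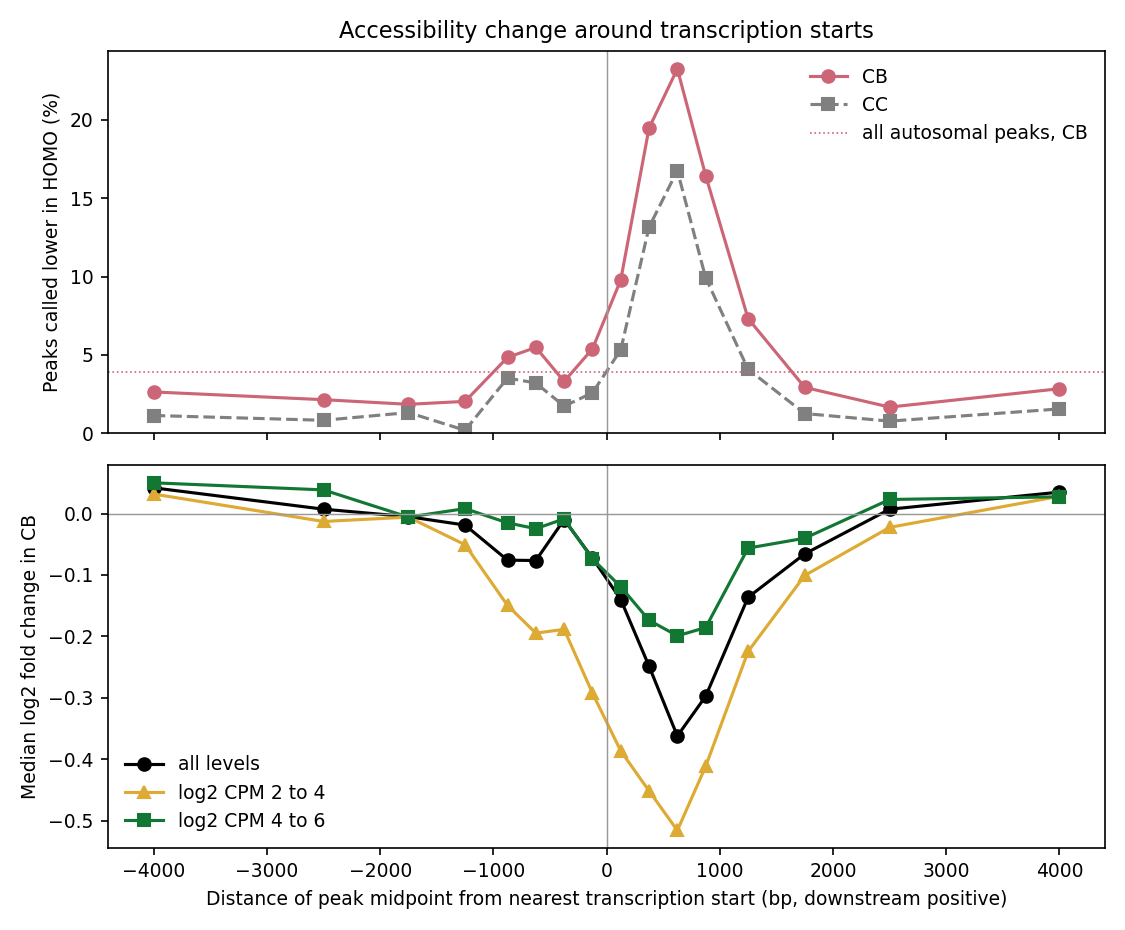
Upper panel, percentage of peaks called lower in HOMO (adjusted p under 0.05) against the distance of the peak midpoint from the nearest transcription start in bp, downstream positive, for CB (circles) and CC (squares), with the 3.88% of all autosomal CB peaks dotted. Lower panel, median log2 fold change in CB over the same bins for all peaks and for 2 ranges of average log2 CPM. Both panels show the largest loss 500 to 750 bp downstream of the start, where 23.3% of the CB peaks were lower and the median was -0.36.

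The difference between the sides was also seen at like peak strength. The median average log2 CPM was 3.99 downstream and 4.15 upstream. Among peaks with an average log2 CPM of 2 to 4, 446 of 1578 downstream peaks were lower (28.3%, median log2 fold change -0.48), against 61 of 713 upstream peaks (8.56%, median -0.18) and 2.55% of peaks within or between genes (median 0.03). Among peaks of 4 to 6, the shares were 14.9% downstream, 2.30% upstream and 1.23% for peaks within or between genes. Starts with no second gene start within 2 kb gave 20.2% downstream and 4.50% upstream, and leaving out chromosome 14 gave 20.1% and 4.51%.

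The same asymmetry stood within genes. For 2461 genes with a peak within 250 bp of a start and another one 250 to 1000 bp downstream of it, the downstream peak had the lower log2 fold change in 2051 genes (83.3%), with a median difference of -0.27. For 1148 genes with an upstream peak at the same distances, the upstream peak was the lower one in 606 (52.8%), with a median difference of -0.01. These are counts over genes of the same libraries, and genes are not replicates.

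In single libraries, the downstream peaks had a median of 18.7, 17.6 and 18.2 CPM in WT CB 1 to 3 and of 15.5, 13.7 and 13.7 CPM in HOMO CB 1 to 3. All HOMO CB libraries were below all WT CB libraries. The means were 18.2 ± 0.526 and 14.3 ± 1.01 CPM (SD, n = 3 each), and the exact two-sided permutation p was 0.1, the smallest that 3 against 3 allows (0.157 after Benjamini-Hochberg adjustment over 11 such measures). On the log2 scale and relative to the WT CB mean of each peak, the downstream median minus the upstream median was 0.05, -0.01 and -0.04 in WT CB and -0.15, -0.28 and -0.28 in HOMO CB. HOMO CB 1, the shallowest CB library, stood nearest to WT on this measure. HOMO CC 1, shallower still, was likewise nearest to WT CC, at -0.18 against -0.33 and -0.34 in HOMO CC 2 and 3. The part of depth in this was not tested beyond 2 values: thinned to equal totals, the downstream median log2 fold change was -0.27, and without HOMO CB 1 and WT CB 2 it was -0.37, against -0.30 in the full fit. Peaks within or between genes had medians of 5.51 ± 0.211 CPM in WT CB against 5.53 ± 0.0299 CPM in HOMO CB (SD, n = 3 each).

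**Figure D2:**
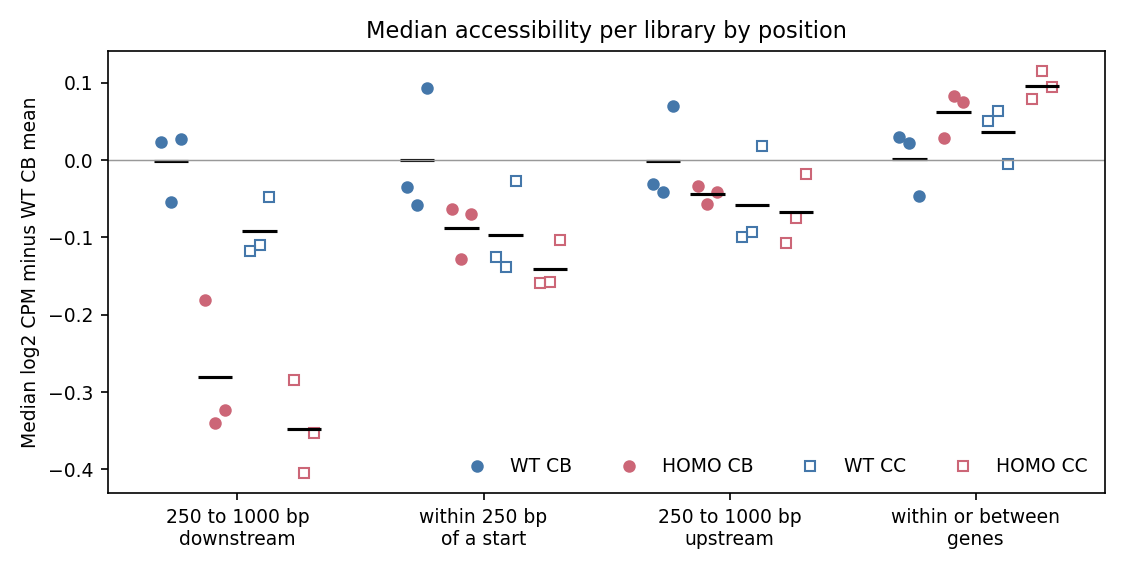
Each point is 1 library: the median over the peaks of a class of log2 CPM minus the WT CB mean of the same peak, for WT CB and HOMO CB (filled) and WT CC and HOMO CC (open), with black bars at the mean of 3 libraries. Downstream of starts all HOMO libraries are below all WT libraries of their population, and HOMO CB 1 is nearest to WT CB.

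Genes of the germinal center program illustrate the pattern. Here and below, start peaks are set beside downstream peaks that were called, so part of the contrast follows from that choice. Mki67, the proliferation antigen of dividing cells, had a peak 579 bp downstream of its start with 17.2, 14.4 and 14.5 CPM in WT CB against 12.2, 9.28 and 6.19 CPM in HOMO CB. The groups did not overlap, and the log2 fold change was -0.81 ± 0.19 (SE, adjusted p = 0.0208). Its start peak, 92 bp upstream of the start, had 54.2, 48.4 and 54.0 CPM in WT CB against 56.6, 52.1 and 48.2 CPM in HOMO CB, groups that overlapped (log2 fold change -0.01, adjusted p = 0.973). The call of the downstream peak was lost in 3 of the 6 fits without 1 library, with an adjusted p of up to 0.137 without HOMO CB 3.

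Foxo1 encodes a transcription factor of the dark zone. Its peak 800 bp downstream of the start had 23.5, 21.3 and 20.9 CPM in WT CB against 16.2, 16.0 and 12.9 CPM in HOMO CB, with no overlap (log2 fold change -0.56 ± 0.13, adjusted p = 0.0193, up to 0.13 without HOMO CB 3). The Foxo1 start peak overlapped between groups, with 38.9, 43.4 and 40.2 CPM in WT CB against 44.7, 35.7 and 34.2 CPM in HOMO CB. Another Foxo1 peak, 49.3 kb outside the gene, was called in the other direction (log2 fold change 0.39 ± 0.10, adjusted p = 0.0295, up to 0.137 without HOMO CB 3).

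Dpf2 encodes a subunit of the BAF form of SWI/SNF. Its peak 723 bp downstream of the start had 9.32, 9.05 and 10.0 CPM in WT CB against 4.72, 4.15 and 5.18 CPM in HOMO CB. That loss (-1.02 ± 0.17 on the log2 scale, adjusted p = 0.00301) was called in all 6 fits without 1 library. The Dpf2 start peak had 18.3, 19 and 22.9 CPM in WT CB against 22.4, 21.7 and 18.2 CPM in HOMO CB, with overlapping groups and a log2 fold change of 0.03. Atp5c1, a subunit of mitochondrial ATP synthase, had a log2 fold change of -0.99 at 638 bp downstream, called in all 6 such fits, and of -0.30 at the start (adjusted p = 0.0676). For Cd81, part of the B cell co-receptor, Fyn, a Src-family kinase, and B2m, the light chain of class I MHC, the downstream peaks fell by 0.66, 0.51 and 0.55 on the log2 scale. Their start peaks had -0.10, -0.06 and -0.17 and were not called. The 3 downstream calls were each lost in 3 of 6 fits without 1 library (adjusted p up to 0.122 without HOMO CB 2 for Cd81, 0.0887 without WT CB 3 for Fyn and 0.117 without HOMO CB 3 for B2m). In Epb41l1, a cytoskeletal band 4.1 relative, both peaks fell alike, by -1.67 at 630 bp downstream and -1.72 at the start itself.

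Losses at starts were commonest at an average log2 CPM of 2 to 4. Called shares among start peaks were 3.93% at an average log2 CPM under 1, 10.2% at 1 to 2, 20.6% at 2 to 3, 22.1% at 3 to 4, 11.5% at 4 to 5, 2.57% at 5 to 6 and 0.253% above 6. The medians over all start peaks in these ranges were -0.25, -0.38, -0.44, -0.34, -0.17, -0.05 and 0.02. Peaks within genes had medians of 0.06 at 2 to 3 and 0.02 at 3 to 4. Gains between genes were commonest at 4 to 5, where 74 of 2493 peaks (2.97%) were called higher. A start peak with a stronger peak within 1 kb was lower in 756 of 4310 cases (17.5%), one that stood alone in 408 of 5024 (8.12%) and one with only weaker neighbours in 202 of 3856 (5.24%). Within the range of 2 to 4 alone the 3 shares were 23.9%, 17.4% and 22.3%.

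**Figure D3:**
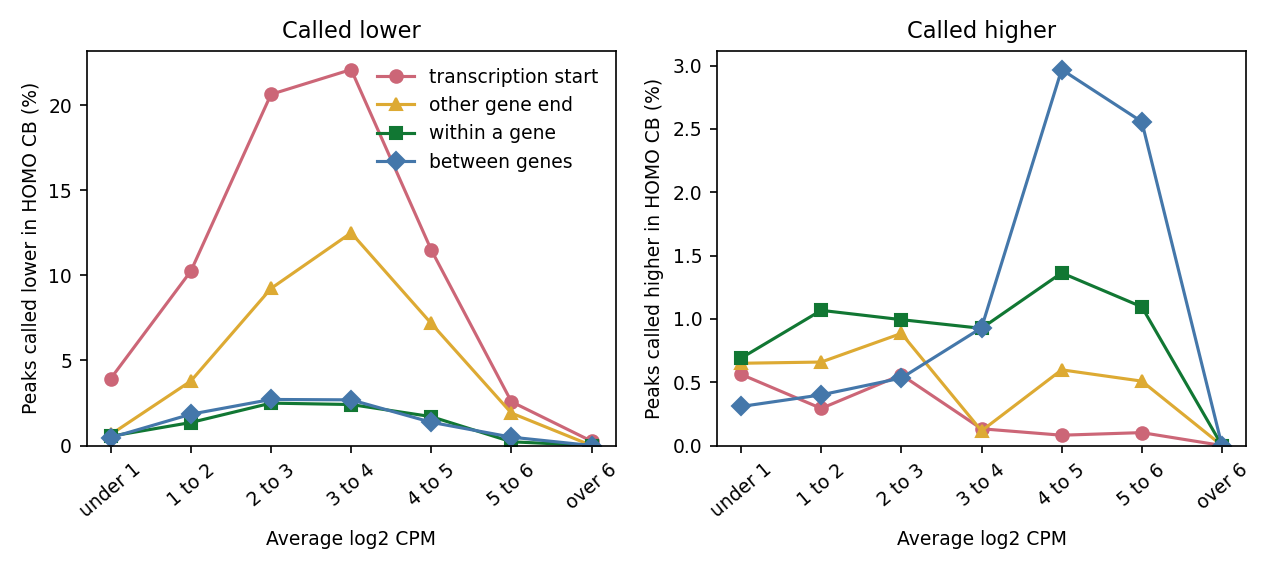
Percentage of peaks called lower (left) and higher (right) in HOMO CB against the average log2 CPM of the peak, for peaks within 1 kb of a listed start, at other gene ends, within genes and between genes. Losses at starts peak at 22.1% for a log2 CPM of 3 to 4, and gains between genes peak at 2.97% for 4 to 5.

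Away from starts, the genes with a lost start peak had a median near that of other genes but a larger share of losses. Peaks within or between genes that were assigned to the 1249 genes with a lost start peak had a median log2 fold change of 0.03, and 125 of 4173 were lower (3.00%). For the 7417 genes with start peaks of which none was called lower, the values were 0.07 and 353 of 24553 (1.44%).

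The largest changes outside the 3 Mb on each side of Pbrm1 that held in all 6 fits without 1 library were named by a rule of size, 10 in each direction. Of the 10 losses, 8 lay within 1 kb of a start. A start lay within 100 bp of the midpoint of 3 lost peaks (Pfkm, Myo7a, Ikbke) and of 1 gained peak (Lhx3), and the 250 bases before each of these starts are shown because the peaks cover them at least in part. The sequences are from RefSeq's table for GRCm38.p6, the assembly called mm10, read 5′ to 3′ on the strand of the gene, with each CG dinucleotide in capitals.
Pfkm (chr15:98108221-98108470, plus strand): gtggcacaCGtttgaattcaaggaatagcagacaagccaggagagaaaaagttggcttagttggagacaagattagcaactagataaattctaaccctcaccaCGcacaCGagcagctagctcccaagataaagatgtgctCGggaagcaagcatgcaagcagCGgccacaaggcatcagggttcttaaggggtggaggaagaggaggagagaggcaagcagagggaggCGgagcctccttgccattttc
Myo7a (chr7:98109249-98109498, minus strand): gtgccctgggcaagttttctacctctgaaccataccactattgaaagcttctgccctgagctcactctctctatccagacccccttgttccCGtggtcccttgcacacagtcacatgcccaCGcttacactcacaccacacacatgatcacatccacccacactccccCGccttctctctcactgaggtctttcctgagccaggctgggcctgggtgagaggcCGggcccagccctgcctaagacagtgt
Ikbke (chr1:131279564-131279813, minus strand): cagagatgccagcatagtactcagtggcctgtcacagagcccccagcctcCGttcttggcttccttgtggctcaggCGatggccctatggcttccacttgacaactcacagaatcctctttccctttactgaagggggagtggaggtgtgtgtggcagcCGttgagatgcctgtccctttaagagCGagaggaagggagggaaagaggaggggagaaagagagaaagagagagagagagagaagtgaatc
Lhx3 (chr2:26208250-26208499, minus strand): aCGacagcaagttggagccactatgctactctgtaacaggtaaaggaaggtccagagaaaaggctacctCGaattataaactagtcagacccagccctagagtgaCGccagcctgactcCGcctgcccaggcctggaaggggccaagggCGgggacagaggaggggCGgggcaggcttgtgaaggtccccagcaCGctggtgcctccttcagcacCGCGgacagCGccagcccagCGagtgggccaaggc

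Counted over the full window of 300 bases, which adds 50 bases after the start, Pfkm held 9 CG dinucleotides, Myo7a 6, Ikbke 4 and Lhx3 13. The median was 21 in the 479 start windows under peaks called lower, 22 in the 7051 under peaks not called and 14 in all 20084 windows of the table. Windows with at least 150 bases inside a peak were counted. The windows ended 50 bases after the start, so the downstream peaks described above fell short of this overlap at their own start. The medians and shares given here therefore do not describe the sequence under those peaks, where losses were most frequent. The share of G and C had medians of 61.7% under lower peaks and 62.3% under peaks not called. Among peaks of average log2 CPM 2 to 4, the medians were 18 CG dinucleotides in lower and 17 in other windows. The SP/KLF motif GGGCGG, on either strand, stood in 67.4% of the windows under lower peaks and in 71.0% of those under peaks not called. It stood in 69.0% of lower and 58.7% of other windows at log2 CPM 2 to 4, and in 47.0% of all windows. It was present in the Lhx3 window. The ETS motif CCGGAAG stood in 18% of the windows under lower peaks and in 19.4% of those under peaks not called. It stood in 10.0% of lower and 10.5% of other windows at log2 CPM 2 to 4, and in 11.9% of all windows.

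Pfkm encodes the muscle form of phosphofructokinase, a control enzyme of glycolysis. The peak at this start (chr15:98108186-98108686) had 7.37, 6.07 and 6.6 CPM in WT CB against 1.96, 2.28 and 1.66 CPM in HOMO CB. The groups were far apart, with a log2 fold change of -1.77 ± 0.24 (SE, adjusted p = 0.000783). Myo7a encodes an unconventional myosin, and its peak (chr7:98109000-98109500) had 8.34, 10.1 and 7.46 CPM in WT CB against 4.19, 2.44 and 1.77 CPM in HOMO CB. These did not overlap either (-1.77 ± 0.25, adjusted p = 0.000876). Ikbke encodes an IκB kinase relative of innate immune signalling, and its peak (chr1:131279230-131279730) had 9.22, 7.22 and 8.16 CPM in WT CB against 3.93, 2.36 and 2.60 CPM in HOMO CB. Here too every HOMO CB library was below every WT CB library (-1.58 ± 0.21, adjusted p = 0.000781).

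The largest of the 10 losses lay near Fpr2, which encodes a formyl peptide receptor. This peak, 16.3 kb from the gene (chr17:17909988-17910488), had 17.5, 14.5 and 12.5 CPM in WT CB against 5.24, 3.42 and 3.63 CPM in HOMO CB, without overlap (log2 fold change -1.94 ± 0.24, adjusted p = 0.000781). Downstream of starts lay the peaks of Cd302, a C-type lectin (-1.56 ± 0.26 at 414 bp), and Ccrl2, an atypical chemokine receptor (-1.55 ± 0.22 at 282 bp). The other losses named by this rule were at Pigz, a mannosyltransferase of GPI anchor synthesis (-1.69), Epb41l1 (-1.67), Pacsin3, a membrane-bending protein (-1.66), and Bivm (-1.54). Their WT CB means ran from 4.12 CPM at Epb41l1 to 7.5 CPM at Pigz.

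Gains by the same rule were mostly distant from starts. Jak1, a kinase of cytokine receptors, had an intragenic peak (chr4:101169606-101170106) with 2.05, 2.29 and 2.65 CPM in WT CB against 10.2, 6.73 and 5.52 CPM in HOMO CB. All HOMO CB values exceeded all WT CB values (log2 fold change 1.61 ± 0.29, adjusted p = 0.00472). Nfkb1 encodes the p50 subunit of NF-κB, and 1 peak within the gene (chr3:135585447-135585947) had 5.81, 6.30 and 7.26 CPM in WT CB against 14.5, 11.6 and 12.1 CPM in HOMO CB. The groups did not overlap (0.95 ± 0.16, adjusted p = 0.00338). A second Nfkb1 peak, 26.5 kb outside the gene, was lower in HOMO CB (-0.98 ± 0.21, adjusted p = 0.0129, up to 0.128 without HOMO CB 2).

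Lhx3, a LIM-homeobox factor known from pituitary and motor neurons, was the gained start peak (chr2:26208008-26208508), with 2.05, 1.83 and 3.81 CPM in WT CB against 7.47, 6.51 and 7.83 CPM in HOMO CB. No value overlapped (1.41 ± 0.24, adjusted p = 0.00344). Ccnc, cyclin C of the Mediator kinase module (1.41), Nsun3, a mitochondrial tRNA methyltransferase (1.29), Prex1, an exchange factor for Rac (1.25), Cplx2, a synaptic complexin (1.22), and Tubgcp3, of the γ-tubulin complex (1.17), gave the further gains on other chromosomes. A second Prex1 peak, 5.60 kb outside the gene, was lower (-0.96, adjusted p = 0.0269, up to 0.11 without HOMO CB 2).

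**Figure D4:**
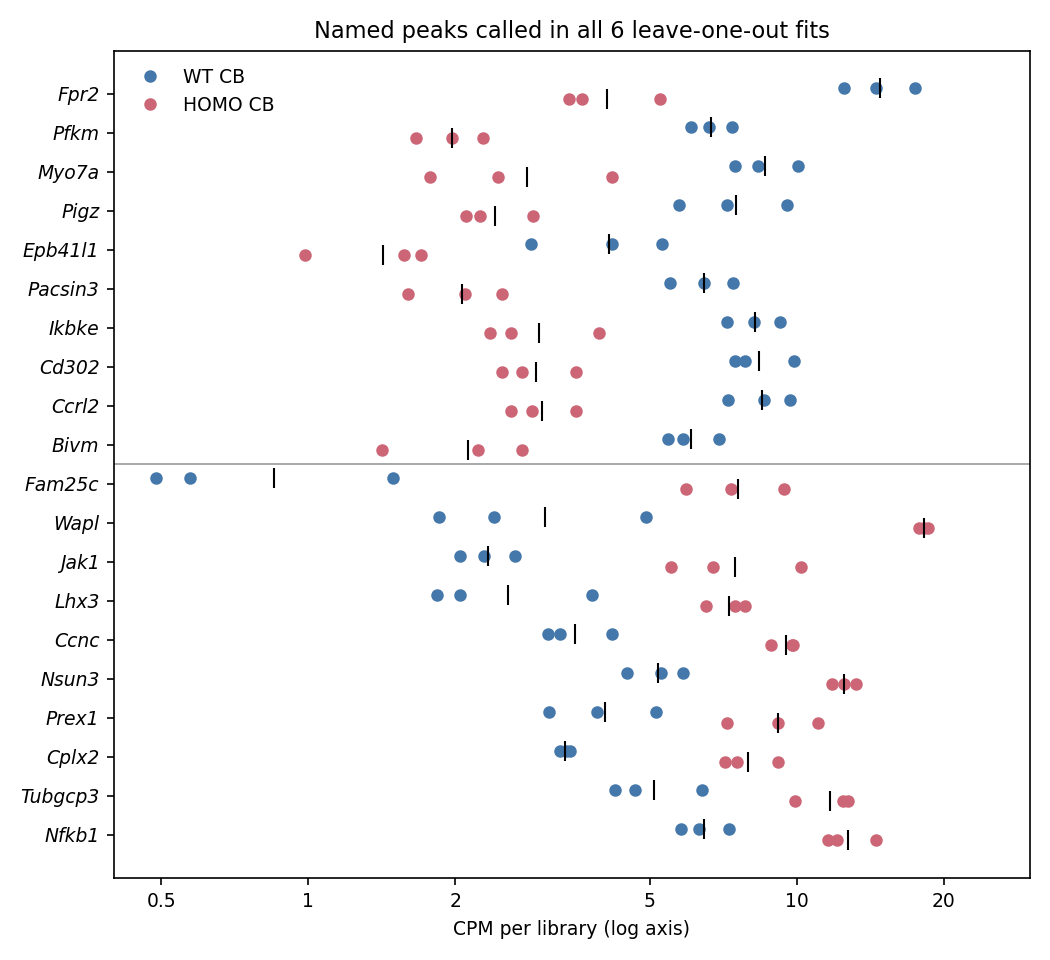
CPM of each WT CB and HOMO CB library (points, log axis) and group mean (black tick) at the 10 losses (above the line) and 10 gains (below) named by size. In all 20 peaks the HOMO CB and WT CB libraries do not overlap.

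Peaks near Fam25c and near Wapl, which encodes a releaser of cohesin, had the largest gains of the list (2.94 ± 0.41 and 2.49 ± 0.35), and both lie on chromosome 14, 3.34 and 3.73 Mb beyond the Pbrm1 start. Wild-type levels there were 0.488, 0.573 and 1.49 CPM for Fam25c and 1.85, 2.41 and 4.91 CPM for Wapl, against 9.43, 7.32 and 5.94 CPM and 18.6, 17.8 and 18.2 CPM in HOMO CB. Calls were dense on this side of the knocked-out gene: 29 of 156 peaks up to 3 Mb beyond it (18.6%) and 21 of 55 at 3 to 7 Mb (38.2%) were called either way, against 5 of 100 in the 3 Mb before it and 0 of 28 at 7 to 12 Mb. Changes of at least 1.5 on the log2 scale were called in 26 of 2537 peaks on chromosome 14 (1.02%) and in 82 of 64622 on the other autosomes (0.127%). The other autosomes alone held 2459 lower and 497 higher peaks (3.81% and 0.769%). An effect of Pbrm1 loss and one of the position beside the targeted gene cannot be told apart on this stretch.

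Some genes lost several peaks. The gene with most, Ccser2 with 7, lies in the same stretch of chromosome 14, 5.95 Mb beyond the Pbrm1 start, and 1 of its 7 peaks was called in all 6 fits without 1 library. Trim2, an E3 ubiquitin ligase, lost 6 peaks, 3 of them within 1 kb of a start, with log2 fold changes from -1.55 to -0.83. Gfi1, a transcriptional repressor of blood cell development, lost 5, of which 3 lay at its starts, with log2 fold changes from -1.10 to -0.49. None of these calls held in all 6 fits without 1 library: for Gfi1 the highest adjusted p was 0.185 without HOMO CB 3, and for Trim2 it was 0.244 without HOMO CB 2. Slc2a3, the glucose transporter GLUT3, lost 4. The loss of lowest adjusted p, with a smaller fold change than 2 of the others, was a gene-end peak (chr6:122801692-122802192) with 28.9, 25.9 and 26.1 CPM in WT CB against 14.5, 15.4 and 14.3 CPM in HOMO CB. That difference, without overlap, was called in all 6 fits without 1 library (-0.87 ± 0.14, adjusted p = 0.00184). Most gains, 4, were assigned to Rpia, a ribose phosphate isomerase, but all 4 peaks lay outside the gene, 0.989 to 39.0 kb away. Only protein-coding gene spans were used for the assignment, so the peaks may belong to genes of other classes. The peak 25 kb from Rpia held in all 6 such fits (21.5, 24.5 and 24.5 CPM in WT CB against 45.8, 37.8 and 34.2 CPM in HOMO CB, log2 fold change 0.73 ± 0.12).

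Called changes at the strongest peaks were small. The strongest called losses lay at the starts of Rnf13, an E3 ubiquitin ligase, Ghitm, Lclat1, Plk2, a polo-like kinase, and Gdap2, with log2 fold changes from -0.38 to -0.29. Ghitm, with the -0.38, lies 6.12 Mb beyond the Pbrm1 start, in the stretch of chromosome 14 where calls were dense. At Plk2, the WT CB libraries had 71.2, 77 and 72.4 CPM and the HOMO CB libraries 63.3, 53.5 and 55.4 CPM. They did not overlap (-0.36 ± 0.09, adjusted p = 0.025, up to 0.166 without HOMO CB 2). Among the strongest gains was a start peak, that of Itga4, the α4 integrin chain, with 53.4, 53.7 and 50.4 CPM in WT CB against 70.7, 65.6 and 66.9 CPM in HOMO CB. The gain, again without overlap, was 0.37 ± 0.08 (adjusted p = 0.0171, up to 0.0781 without HOMO CB 2). None of the 10 strongest called peaks, 5 in each direction, kept its call in all 6 fits without 1 library.

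Among gene lists, the dark zone program had the largest share of gains. Of 147 peaks of its 21 genes with a peak, 7 were higher (4 within 10 kb of the gene) and 4 lower, with a median log2 fold change of 0.17, against 0.01 over all autosomal peaks and 0.785% of them higher. Ccnd3, the cyclin D of dividing germinal center B cells, had 2 neighbouring peaks called higher, 1 with 20.6, 17.2 and 18.1 CPM in WT CB against 29.6, 29.6 and 27.0 CPM in HOMO CB. That gain (0.62 ± 0.12, adjusted p = 0.0069) was called in 5 of 6 fits without 1 library, with an adjusted p of 0.0614 without HOMO CB 2. Nusap1, a spindle protein, gave another gain (1.70 ± 0.33, adjusted p up to 0.058 without WT CB 1). Summed over the list, WT CB libraries had 2654 to 2749 CPM and HOMO CB libraries 2900 to 2944 CPM. Leaving out 1 CB library gave 1 to 8 higher and 0 to 5 lower peaks. The start peaks of the list had a median of -0.14, with 3 of 32 lower, near the -0.13 and 10.4% of all start peaks.

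B cell and germinal center transcription factors had 9 higher and 1 lower of 724 peaks, with a median of 0.12. For this list and the next 2, the shares over all autosomal peaks were 0.785% higher and 3.88% lower. Pou2af1, the octamer co-activator that germinal centers need, had 1 peak 18.7 kb from the gene with 7.07, 7.33 and 5.41 CPM in WT CB against 11.7, 11.8 and 13 CPM in HOMO CB. This gain without overlap was called in all 6 fits without 1 library (0.91 ± 0.17, adjusted p = 0.00673). Foxp1 had a gain within the gene (0.53 ± 0.12, adjusted p up to 0.114 without HOMO CB 2). The list's count of gains ran from 1 to 10 when 1 CB library was left out. Migration and positioning genes had 5 higher and 1 lower of 275 peaks, among them a peak 22.1 kb from Cxcr4 with 16.4, 13.7 and 14.8 CPM in WT CB against 21.9, 24 and 21.8 CPM in HOMO CB (0.59 ± 0.13, adjusted p = 0.0112, up to 0.0938 without HOMO CB 2). B cell receptor signalling genes had 5 higher and 4 lower of 454 peaks, among them a strong peak in Csk, the kinase that restrains Src-family kinases, with 54.3, 55.7 and 50.6 CPM in WT CB against 69.8, 69.7 and 69.6 CPM in HOMO CB (0.38 ± 0.08, adjusted p = 0.0127, up to 0.079 without HOMO CB 2).

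In lists of housekeeping and widely expressed genes, losses at starts were about as common as at all start peaks, of which 10.4% were lower with a median of -0.13. Zfp zinc finger genes had 68 lower and 6 higher of 974 peaks, and 39 of the losses were among their 346 start peaks, whose median was -0.20. Zfp13 stood out, with 15.8, 12 and 16.4 CPM in WT CB against 5.63, 5.48 and 5.99 CPM in HOMO CB at 393 bp downstream of its start. That loss was called in all 6 fits without 1 library (-1.38 ± 0.18, adjusted p = 0.000738). Respiratory chain and ATP synthase genes had 13 lower and 1 higher of 201 peaks, with 11 losses among 93 start peaks. Cytosolic ribosomal protein genes had 6 lower of 180 peaks, with 5 losses among 61 start peaks. Leaving out 1 CB library gave 10 to 83, 1 to 14 and 0 to 11 lower peaks in these 3 lists.

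Of all autosomal peaks, 3.88% were lower and 0.785% higher. Interferon response genes had 10 lower and 1 higher of 140 peaks, with 5 of the losses among their 29 start peaks. Those start peaks had a median average log2 CPM of 3.55, and 22.1% of all start peaks at 3 to 4 were lower. A peak 16.6 kb from Irf1, a transcription factor of that response, had 27.1, 22.2 and 25.1 CPM in WT CB against 17.2, 15 and 13.8 CPM in HOMO CB (-0.72 ± 0.13, adjusted p = 0.00523), and kept its call in all 6 fits without 1 library. The p53 response and cell death list had 7 lower and 1 higher of 188 peaks. Plasma cell genes had 5 lower of 121 peaks, including a peak in Sdc1, the surface proteoglycan CD138 (-1.18 ± 0.24, adjusted p up to 0.104 without HOMO CB 2).

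The counts that follow stand beside 3.88% lower and 0.785% higher over all autosomal peaks. Light zone genes had 2 lower and 2 higher of 237 peaks. The genes of somatic hypermutation, class switch and DNA repair had 0 calls among 105 in edgeR, with 26 at an unadjusted p under 0.05. DESeq2 gave 2 calls and limma voom 7 among them. The PI3K, mTOR and Foxo list had 3 lower and 2 higher of 294 peaks, with a loss at the start of Tsc2, a brake on mTOR, from 34.0, 31.7 and 30.9 CPM to 22.9, 16.6 and 19.8 CPM (-0.73 ± 0.13, adjusted p = 0.00433, up to 0.0576 without HOMO CB 2). Genes for chromatin modifiers of B cell lymphoma had 3 lower, all at starts, and 3 higher of 185. The losses included Kmt2d, a histone methyltransferase (-0.67 ± 0.17, adjusted p up to 0.15 without HOMO CB 3), and Tet2, a DNA demethylase (-0.60 ± 0.15, adjusted p up to 0.0866 without WT CB 2). SWI/SNF subunit genes had 3 lower of 212 peaks, with Dpf1 (-1.42 ± 0.21 within the gene) beside Dpf2. The remaining pathway lists were G1 and S phase control with 6 lower and 2 higher of 184, T cell help and cytokine receptors with 6 and 2 of 247, AP-1 and immediate early factors with 5 and 1 of 140, memory precursor genes with 3 and 3 of 225, and antigen presentation with 1 lower of 54.

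**Figure D5:**
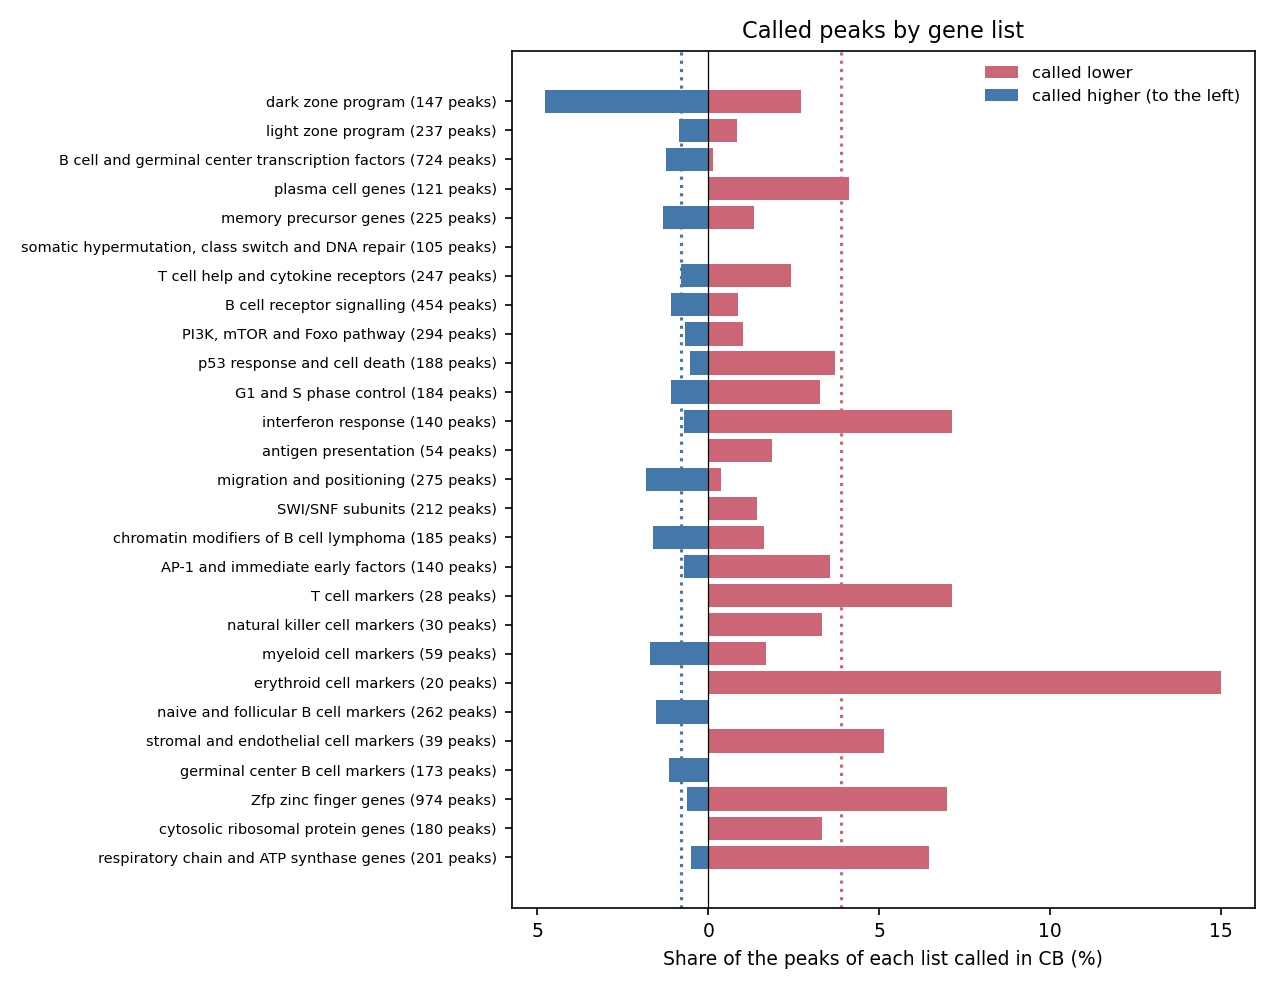
Share of the peaks of each gene list called lower (right) or higher (left, same scale) in HOMO CB, with the number of peaks of the list in brackets and the shares over all autosomal peaks, 3.88% and 0.785%, dotted. The dark zone list has the longest bar for gains, 7 of 147 peaks, and the short erythroid marker list has the longest for losses, 3 of 20.

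Summed over their peaks, markers of other cell types were lower in all HOMO CB than in all WT CB libraries in 4 of 5 lists. T cell marker peaks summed to 255 to 270 CPM in WT CB against 222 to 238 CPM in HOMO CB, natural killer markers to 244 to 265 and 217 to 235 CPM, stromal and endothelial markers to 253 to 270 and 220 to 240 CPM, and erythroid markers to 195 to 201 and 179 to 187 CPM. Myeloid markers overlapped, at 749 to 784 and 769 to 811 CPM. Germinal center B cell markers summed to 3204 to 3269 CPM in WT CB against 3426 to 3643 CPM in HOMO CB, with 2 of 173 peaks called higher. Naive and follicular B cell markers were also higher in every HOMO CB than in every WT CB library, at 3179 to 3197 CPM in WT CB against 3240 to 3527 CPM in HOMO CB, with 4 of 262 peaks called higher. In bulk samples, fewer cells of a type and less accessibility per cell cannot be told apart, and the part of cell makeup in these changes was not tested. Over all autosomal peaks, 3.88% were called lower and 0.785% higher. Of the 28 T cell marker peaks, 2 were called lower, both within Cd247, which encodes the ζ chain of the T cell receptor. The Cd247 peak of lower adjusted p had 20.2, 19.8 and 17.4 CPM in WT CB against 10.1, 8.87 and 8.95 CPM in HOMO CB (-1.05 ± 0.16). The strongest Cd247 peak overlapped between groups, with a log2 fold change of 0.03 (adjusted p = 0.91). A peak in Vwf, an endothelial gene, had 15.1, 17.5 and 14.4 CPM in WT CB against 7.20, 7.62 and 5.04 CPM in HOMO CB (-1.25 ± 0.20). The Cd247 peak with the values above and the Vwf peak were called in all 6 fits without 1 library.

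No autosomal peak was shown to respond differently in CB and CC. The test of the difference between the 2 genotype effects in edgeR called 0 of 67159 peaks (0%), with 790 at an unadjusted p under 0.05. DESeq2 called 0, with 635, and limma voom 0, with 991. Those unadjusted shares were 1.18%, 0.946% and 1.48% of peaks, smaller than a cutoff of 0.05 gives where nothing differs. The fits did not pair CB and CC libraries of 1 genotype and number, so the 0 does not show that CB and CC respond alike. In CC, 1471 peaks were lower (2.19%) and 392 were higher (0.584%) in HOMO. Of the 2604 peaks lower in CB, 1074 were also called lower in CC, which is 41.2% of the CB and 73.0% of the CC calls. Of the 527 higher in CB, 172 were also called higher in CC, 32.6% and 43.9%. The peaks downstream of starts had a median log2 fold change of -0.28 in CC and -0.30 in CB, and 510 of 3651 were lower in CC (14%). All 12 libraries share 1 estimate of spread per peak, and CB and CC libraries of 1 genotype and number deviated together (correlations of 0.21 to 0.51), so the calls in CB and CC are not independent.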

How the data were processed

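Per the file headers and labels, the deposited table holds the authors' raw read counts per peak for 12 ATAC-seq libraries on mm10. The submitters' processing notes name FastQC, BWA, deepTools and R 4.2.1. Not given in the sources used here: peak caller, counting tool, pooling for peak calling, duplicates, Tn5 offset. Replicates differed by more than sampling noise (chi-square per degree of freedom 2.28 to 7.66).

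Counts of 68689 peaks were fitted with edgeR 4.0.16 (R 4.3.3): TMM factors, filterByExpr (no peak removed), a mean for each of the 4 groups, the two-sided robust quasi-likelihood test, and Benjamini-Hochberg adjustment over all peaks. A call is an adjusted p under 0.05. CPM include the TMM factors. Log2 CPM were computed with prior count 2. The median SE of the log2 fold change in CB was 0.20. DESeq2 1.42.0, limma voom 3.58.1, other scalings, a replicate block and left-out libraries were alternatives. The fit was tested on simulated data. Per-library medians were compared by exact permutation (scipy).

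Peaks were assigned to the nearest RefSeq protein-coding gene span within 50 kb, which 93.3% had. Exons and introns were not used here. Members and lists were chosen with earlier results of these data known. Named peaks follow a rule: over 3 Mb from Pbrm1, the 10 largest changes per direction held in all 6 leave-one-out fits at log2 CPM of at least 2, the 5 genes with most calls, the 5 strongest called peaks, up to 2 peaks per list and direction, and the Pbrm1 peaks. The analysis by side of the start was added after the data had been seen.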

Additional observations from a re-analysis of the deposited data

Results flagged for a closer look

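Chromosome X was outside the comparison. There, 47 of 1530 peaks were called in HOMO CB, 39 lower and 8 higher (3.07%), and 1 of the WT CB libraries had a low Xist signal, so these calls were not described further.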

How the results depend on the processing

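The 2604 losses and 527 gains became 6225 and 2719 with a replicate block, 5821 and 2181 with the log2 library total as a term, and 4840 and 1449 with limma voom. DESeq2 gave 911 gains. Fewer calls came without HOMO CB 1 and WT CB 2 together (335 gains), without WT CB 2 and WT CC 2 (1382 and 250), from thinned counts (799 and 138) and at an adjusted p under 0.01 (628 and 54). These 3 choices of libraries and depth were made after seeing the data. Leaving out 1 CB library gave 301 to 3075 losses and 35 to 581 gains. Each setting kept more losses than gains, and the difference between CB and CC had 0 calls in each setting run. Replicate numbers paired the genotypes at most in part: same-number correlations of deviations in CB were 0.14, -0.01 and 0.28. HOMO CB 3 correlated best with WT CB 3. HOMO CB 1 correlated about equally with WT CB 1 (0.14) and WT CB 2 (0.12), and HOMO CB 2 correlated best with WT CB 3 (0.06). Whether the numbers mark a shared batch was not tested. Of 147 called peaks named, 41 kept the call in all 6 fits without 1 CB library, and 104 lost it without HOMO CB 2. The start peak of Pbrm1, not called, ran from -0.17 to 0.16 when 1 CB library was left out (0.16 without WT CB 3, 0.04 without HOMO CB 1). Downstream of starts the median stayed negative in each setting, from -0.37 to -0.26. Depth limits weak peaks most.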
